A study of Mus musculus with 31 samples.

Results

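A set of 7 genes that define plasma cells was followed across lymphoid tissues of mice lacking GIT2: Xbp1, Prdm1, Sdc1, Irf4, Tnfrsf17, Tnfrsf13b and Pou2af1. The members were all probes that carry 1 of these symbols in the annotation of the Illumina MouseRef-8 bead array, which gave 10 probes among 25697. Of these, 7 probes of 6 genes were detected on at least 3 samples and entered the test, among 15053 tested probes in all. Prdm1 was left with no tested probe. The study asked what the genomic deletion of GIT2, a scaffold protein with GTPase-activating function, does to the thymus and the wider immune system with age. All mice were male, 12 months old, of the C57BL/6 strain and fasted before the tissues were taken. Homozygous GIT2 knockouts (GIT2KO) gave parathymic lobes (PTL), thymus, inguinal lymph nodes (ILN), mesenteric lymph nodes (MLN) and spleen, and wild type mice (WT) gave thymus, ILN, MLN and spleen, with 3 samples in each of the 9 groups. The PTL samples are those labelled as extra lymph nodes, taken here to be the cervical parathymic lobes that the study describes in GIT2KO mice only. No WT lobe was measured, and each PTL comparison stays within GIT2KO mice. The 27 samples came from 7 animals, and the tissues of 1 genotype share those animals, except that PTL replicate 3 came from a GIT2KO mouse of its own.

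A B cell that meets antigen may become a plasma cell, which gives up most of its B cell program and turns its endoplasmic reticulum (ER) over to secreting antibody. The transcription factor Irf4 starts this change, Prdm1 (Blimp-1) represses the B cell program, and Xbp1, the factor spliced in the unfolded protein response, expands the secretory machinery. Sdc1 (CD138) is the surface proteoglycan by which plasma cells are recognised. Tnfrsf17 (BCMA) and Tnfrsf13b (TACI) are receptors for the survival ligands BAFF and APRIL, of which Tnfrsf17 marks plasma cells and Tnfrsf13b is also carried by B cells. Pou2af1 (OBF-1) is the B cell co-activator that joins the octamer-binding factors on DNA.

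The 250 bases before a RefSeq promoter start (mouse build GRCm38.p6) were searched on both strands for motifs of these regulators. The search covered each member and the genes whose pattern was most like a member's. The sequences are shown because Xbp1 and Tnfrsf17 had ER genes among the genes most like them, and Pou2af1 a B cell gene. The unfolded protein response element TGACGTGG, bound by Xbp1, was found in 0.563% of 32851 promoters and among the members only in Pou2af1. The ER stress response element, CCAAT and CCACG with any 9 bases between them, was found in 0.113% of promoters, in none of the members, and in Derl3 and Creld2, which were 2 of the 3 genes most like Xbp1. The interferon response type element, GAAA and GAAA with any 2 bases between them, is read by Irf family factors and was found in 2.98% of promoters and among the members in Tnfrsf17. The Ets and Irf composite element, GGAA and GAAA with any 2 bases between them (2.3% of promoters), was in no searched gene, and the octamer ATGCAAAT (1.6%) was in Blnk alone, a gene like Pou2af1. Overlaps between motifs were allowed. Capitals mark the fixed letters of the match, which in Tnfrsf17, Derl3 and Creld2 lies on the opposite strand and is therefore read in reverse complement. All 4 sequences are on the plus strand, from chr9:51213440-51213689 (Pou2af1), chr16:11313559-11313808 (Tnfrsf17), chr10:75893148-75893397 (Derl3) and chr15:88819396-88819645 (Creld2).
Pou2af1: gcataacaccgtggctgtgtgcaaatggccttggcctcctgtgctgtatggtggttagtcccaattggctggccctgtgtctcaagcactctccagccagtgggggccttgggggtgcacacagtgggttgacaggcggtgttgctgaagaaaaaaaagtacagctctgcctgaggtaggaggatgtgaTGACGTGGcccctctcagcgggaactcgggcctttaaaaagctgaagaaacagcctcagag
Tnfrsf17: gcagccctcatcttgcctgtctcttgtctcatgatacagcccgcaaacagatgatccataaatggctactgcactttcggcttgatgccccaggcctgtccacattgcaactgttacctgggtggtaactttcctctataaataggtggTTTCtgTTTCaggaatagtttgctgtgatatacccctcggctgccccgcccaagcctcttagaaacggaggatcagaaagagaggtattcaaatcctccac
Derl3: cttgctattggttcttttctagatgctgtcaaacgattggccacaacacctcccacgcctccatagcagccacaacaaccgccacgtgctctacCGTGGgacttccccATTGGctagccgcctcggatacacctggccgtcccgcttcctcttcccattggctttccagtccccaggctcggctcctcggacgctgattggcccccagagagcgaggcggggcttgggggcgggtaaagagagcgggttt
Creld2: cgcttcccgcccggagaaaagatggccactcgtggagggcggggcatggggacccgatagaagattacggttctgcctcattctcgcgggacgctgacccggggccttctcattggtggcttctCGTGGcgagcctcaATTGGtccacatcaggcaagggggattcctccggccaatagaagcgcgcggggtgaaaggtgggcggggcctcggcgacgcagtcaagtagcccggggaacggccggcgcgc
The match ends 54 bases before the start in Pou2af1, 92 bases before it in Tnfrsf17, 138 bases before it in Derl3 and 108 bases before it in Creld2. The start is counted from the end of the stretch shown. In Tnfrsf17 that stretch lies inside the RefSeq gene interval, which begins at chr16:11313232, and not before it. A match of letters describes the sequence and was not tested as a binding site.

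Arrays had a mean signal of 208.6–590.9 with 45.9–52.8% of probes detected, that is, with a detection p-value under 0.05 against the negative control beads. Levels below are log2 signals after background correction and quantile normalization, so that a difference of 1 is a 2-fold difference, and a probe's level is not comparable with that of another probe. The limit of detection of an array lay at 5.2–5.68 on this scale. Git2 itself averaged 6.06–7.07 in the GIT2KO groups and 6.8–8.44 in the WT groups and was lower in GIT2KO in each of the 4 tissues, although single spleen samples overlapped (5.69–6.68 in GIT2KO, 6.29–7.23 in WT). Among marker lists, B cell markers averaged 10.27–10.88 in PTL samples and 7.03–8.16 in GIT2KO thymus, and adipocyte markers averaged 8.09–10.71 in PTL, against 8.74–10.5 in thymus, 6.57–8.11 in ILN, 7.92–8.06 in MLN and 6.16–7.43 in spleen of GIT2KO mice. WT MLN replicate 3 stood apart with a mean of 12.46 over pancreas acinar markers, against 5.20–5.45 in the other WT MLN. In whole tissue, fewer cells of a type and less RNA per cell cannot be told apart.

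Xbp1, Irf4, Tnfrsf13b and Pou2af1 were detected in all 27 samples, and Tnfrsf17 in 26. Sdc1 was near the limit, with 14 and 10 samples detected by its 2 tested probes and 0 of 27 by the third, whose signals were 4.59–5.18. Both Prdm1 probes were detected in 0 of 27 samples (4.54–5.0 and 4.51–4.82), so the array gave no level for Blimp-1 in any tissue, PTL included. The plot of all samples shows the span of each gene. Group means of Xbp1 lay between 11.9 and 13.29, whereas those of Irf4 (7.42–10.15) and Pou2af1 (9.07–12.26) had a wider span, with both thymus groups at its low end.

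**Figure D1:**
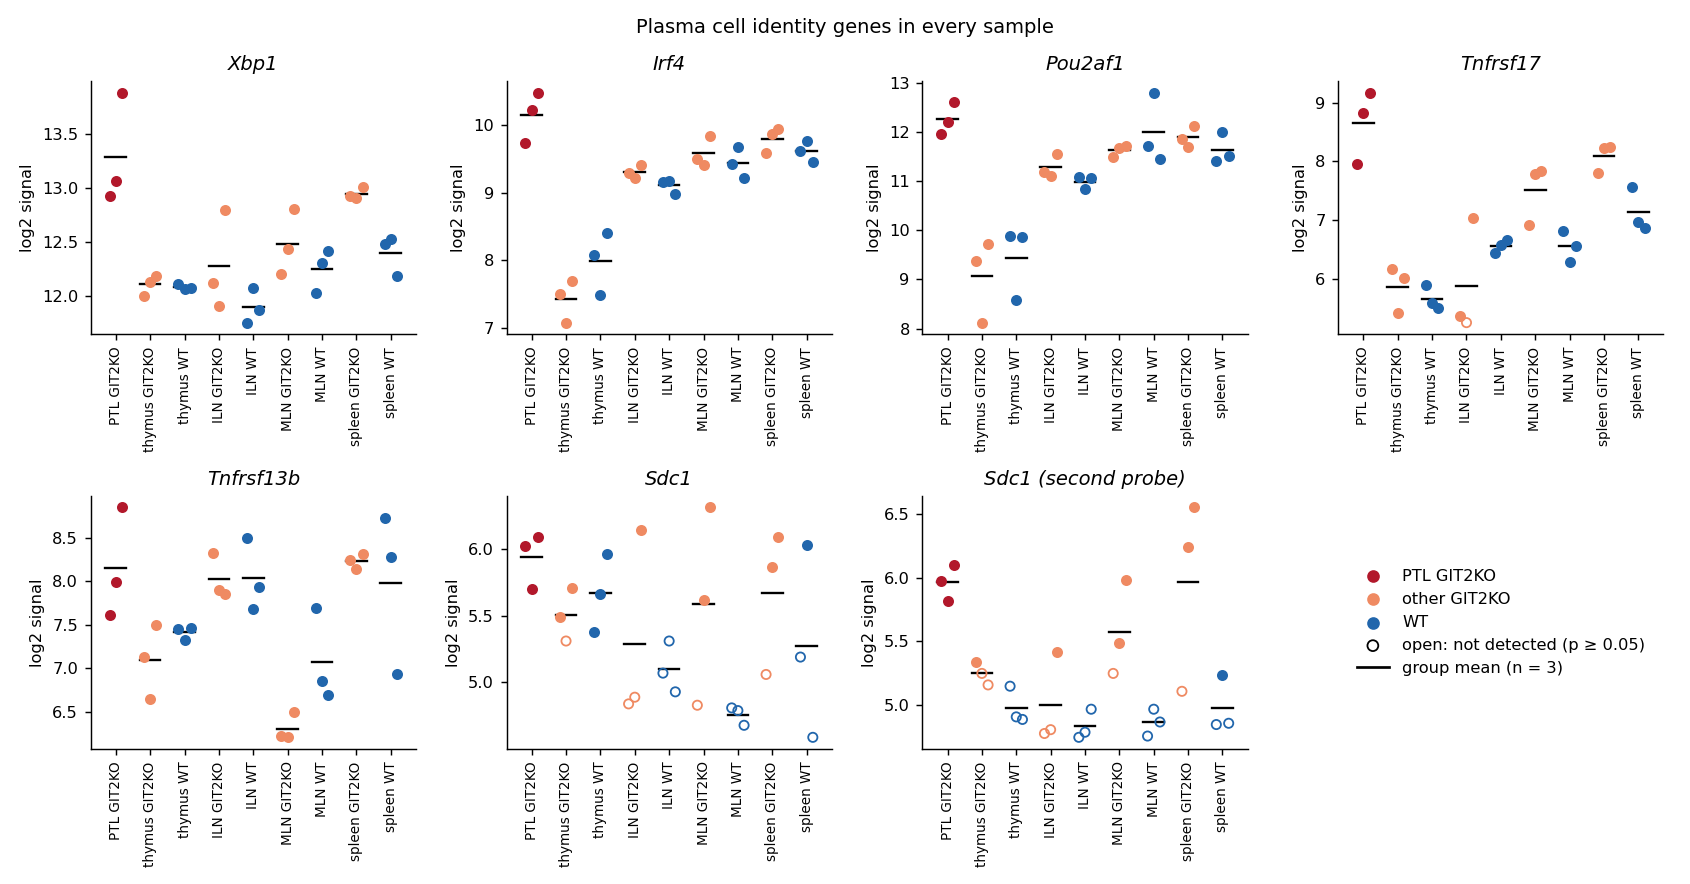
Log2 signal (vertical axis) of Xbp1, Irf4, Pou2af1, Tnfrsf17, Tnfrsf13b and 2 Sdc1 probes in each sample of the 9 tissue and genotype groups (horizontal axis), with open symbols for samples in which the probe was not detected and a bar at the group mean of 3 samples. The PTL samples of Tnfrsf17 sit at 7.95–9.17, above all thymus and ILN samples.

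The plasma cell receptor Tnfrsf17 was higher in the PTL than in both the thymus and the ILN, and against ILN it had the largest difference of the 7 member probes. Its log2 signal was 7.95, 8.82 and 9.17 in PTL, against 6.17, 5.42 and 6.01 in GIT2KO thymus. In GIT2KO ILN it was 5.37, 5.26 (not detected) and 7.03. Every PTL sample was thus above every sample of both tissues, and the ILN samples were uneven, with 1 of 3 well above the others. Tnfrsf17 was higher in PTL by 2.78 (SE 0.36) than in thymus and by 2.76 (SE 0.36) than in ILN, a 6.89-fold and a 6.79-fold difference, with adjusted p = 1.21e-06 and 3.98e-05 (limma, Benjamini-Hochberg over the tested probes of each comparison). In GIT2KO MLN its values were 6.92, 7.78 and 7.83, all below the PTL. The PTL minus MLN difference of 1.14 (SE 0.36) did not pass (adjusted p = 0.0652), but it passed at 1.49 (adjusted p = 0.0271) without PTL replicate 1, and also without GIT2KO ILN replicate 3, which is in neither group and enters only the spread (1.14, adjusted p = 0.0213).

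Xbp1 was detected in every tissue and had its highest mean in the PTL. Its signals were 12.92, 13.06 and 13.88 in PTL, against 12.00, 12.13 and 12.18 in GIT2KO thymus. The ILN gave 12.12, 11.90 and 12.79, and the MLN 12.20, 12.43 and 12.80. No PTL sample overlapped with these tissues, although the highest ILN and MLN samples came close to the lowest PTL sample. The difference was 1.18 (SE 0.21, adjusted p = 6.35e-05) against thymus, 1.01 (SE 0.21, adjusted p = 0.00497) against ILN and 0.81 (SE 0.21, adjusted p = 0.0219) against MLN. The call against MLN was lost without PTL replicate 3 (0.51, adjusted p = 0.17), MLN replicate 1 (0.67, adjusted p = 0.121) or MLN replicate 2 (0.79, adjusted p = 0.0723). PTL replicate 3 had the highest normalized Xbp1, Tnfrsf17, Irf4, Pou2af1 and Tnfrsf13b signals of the 3 lobes. Before normalization its signal was the highest for Xbp1 and Tnfrsf13b, but not for Tnfrsf17, Irf4 and Pou2af1. Its array had the lowest mean signal of the 3 (277.3, against 485 and 349.4 in replicates 1 and 2). This lobe also had the lowest means of adipocyte markers (8.09, against 10.71 and 9.44) and of B cell markers (10.27, against 10.7 and 10.88). It came from a different animal than the other GIT2KO tissues. The part of these in its signals was not tested.

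Irf4 and Pou2af1, both shared with B cells, showed their largest step against the thymus. Irf4 was 9.74, 10.22 and 10.48 in PTL, against 7.5, 7.08 and 7.69 in GIT2KO thymus, a difference of 2.73 (SE 0.21, adjusted p = 1.72e-10). Pou2af1 was 11.97, 12.21 and 12.62 in PTL, against 9.38, 8.12 and 9.72 in GIT2KO thymus, a difference of 3.19 (SE 0.35, adjusted p = 7.71e-08). All 13 tested B cell markers were also higher in PTL than in thymus, with a median difference of 3.14, and how much of the Irf4 and Pou2af1 difference goes with B cell content was not tested.

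Against the lymph nodes, where B cell markers were at similar levels, both differences were smaller. In ILN, Irf4 was 9.29, 9.21 and 9.41, below each PTL sample, and the difference of 0.85 (SE 0.21) passed at adjusted p = 0.0193. It was lost with the animal as a block (0.78, adjusted p = 0.0546) and without PTL replicate 2 (0.81, adjusted p = 0.0539), PTL replicate 3 (0.68, adjusted p = 0.0899), ILN replicate 1 (0.84, adjusted p = 0.0683) or ILN replicate 2 (0.80, adjusted p = 0.0775). PTL replicate 3 is alone in its animal, so of the lobes only PTL replicates 1 and 2 inform the blocked difference. That loss is thus not separate from leaving PTL replicate 3 out. Pou2af1 in ILN was 11.20, 11.10 and 11.56, also below each PTL sample, with a difference of 0.98 (SE 0.35) that did not pass (adjusted p = 0.125). Against MLN the differences were 0.57 for Irf4 (SE 0.21, adjusted p = 0.108) and 0.63 for Pou2af1 (SE 0.35, adjusted p = 0.303). Without PTL replicate 1 the Irf4 difference against MLN passed (0.77, adjusted p = 0.0386).

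Tnfrsf13b had another pattern, with its low point in the MLN. It was 7.61, 7.99 and 8.85 in PTL, against 6.22, 6.21 and 6.50 in GIT2KO MLN, which did not overlap. The difference of 1.84 (SE 0.35, adjusted p = 0.00274) was the larger of the 2 calls against MLN. The ILN were level with the lobes at 8.33, 7.90 and 7.85, and the difference of 0.12 had a 95% interval of −0.61 to 0.85. Against GIT2KO thymus (7.13, 6.65 and 7.5) it was 1.06 (SE 0.35, adjusted p = 0.0189), and this call was lost with the animal as a block (0.77, adjusted p = 0.0589), without PTL replicate 3 (0.71, adjusted p = 0.144) and without thymus replicate 2 (0.84, adjusted p = 0.0977). It was also lost with z-transformed log10 signals and with the deposited scores (adjusted p = 0.0507 in both). PTL replicate 3 adds nothing to the blocked difference here either.

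Sdc1 was detected in all 3 PTL samples by both tested probes. Its second probe read 5.97, 5.82 and 6.10 in PTL, against 5.34, 5.25 and 5.16 in GIT2KO thymus and 4.78, 4.81 and 5.42 in GIT2KO ILN. Only the first thymus sample and the third ILN sample were detected, so most values outside the PTL carry no level of their own. The fitted differences of 0.71 (SE 0.25, adjusted p = 0.0255) and 0.96 (SE 0.25, adjusted p = 0.0279) rest on these undetected signals, and their sizes are not measured ones. Near the detection limit these calls were not stable: that against thymus was lost without PTL replicate 1 or 3 or thymus replicate 2 or 3 (adjusted p of 0.0522, 0.0818, 0.054 and 0.0728), and that against ILN without PTL replicate 1 or 3 or ILN replicate 1 or 2 (0.067, 0.0793, 0.138 and 0.117). Both were also lost with z-transformed log10 signals and with the deposited scores (adjusted p = 0.0757 against thymus and 0.0509 against ILN). The first probe gave 0.44 (adjusted p = 0.356) and 0.65 (adjusted p = 0.38) in the same direction, without passing.

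Counted together, 6 of the 7 member probes passed as higher in PTL than in GIT2KO thymus, where 19.3% of all tested probes passed as higher and 40.8% in either direction. Against ILN 4 of 7 passed as higher, where 2.4% of all probes passed as higher and 4.34% in either direction. Against MLN 2 of 7 passed as higher, where 3.09% of all probes passed as higher and 5.58% in either direction. All 7 differences were above 0 in each of these 3 comparisons. A fit of only the 6 samples compared left 0 of the 7 past the threshold against ILN (5 at an unadjusted p under 0.05, Tnfrsf17 at adjusted p = 0.0665) and 1 against MLN. Against GIT2KO spleen 0 of 7 passed in limma and 0 had an unadjusted p under 0.05, where 19.1% of all probes passed.

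For each of the 7 probes the spleen mean was nearer to the PTL mean than that of any other GIT2KO tissue. For Tnfrsf13b the PTL differences were −0.08 against spleen and 0.12 against ILN (SE 0.35). For the first Sdc1 probe they were 0.27 against spleen and 0.36 against MLN (SE 0.36). The nearest tissue was thus not settled for these probes. Xbp1 was 12.92, 12.90 and 13.01 in GIT2KO spleen, and Tnfrsf17 was 7.80, 8.23 and 8.25, both within or close to the PTL range. PTL minus spleen differences ran from −0.08 for Tnfrsf13b to 0.55 for Tnfrsf17, whose 95% interval was −0.20 to 1.31, so that a difference of 1 in Tnfrsf17 was not excluded at this number of samples.

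**Figure D2:**
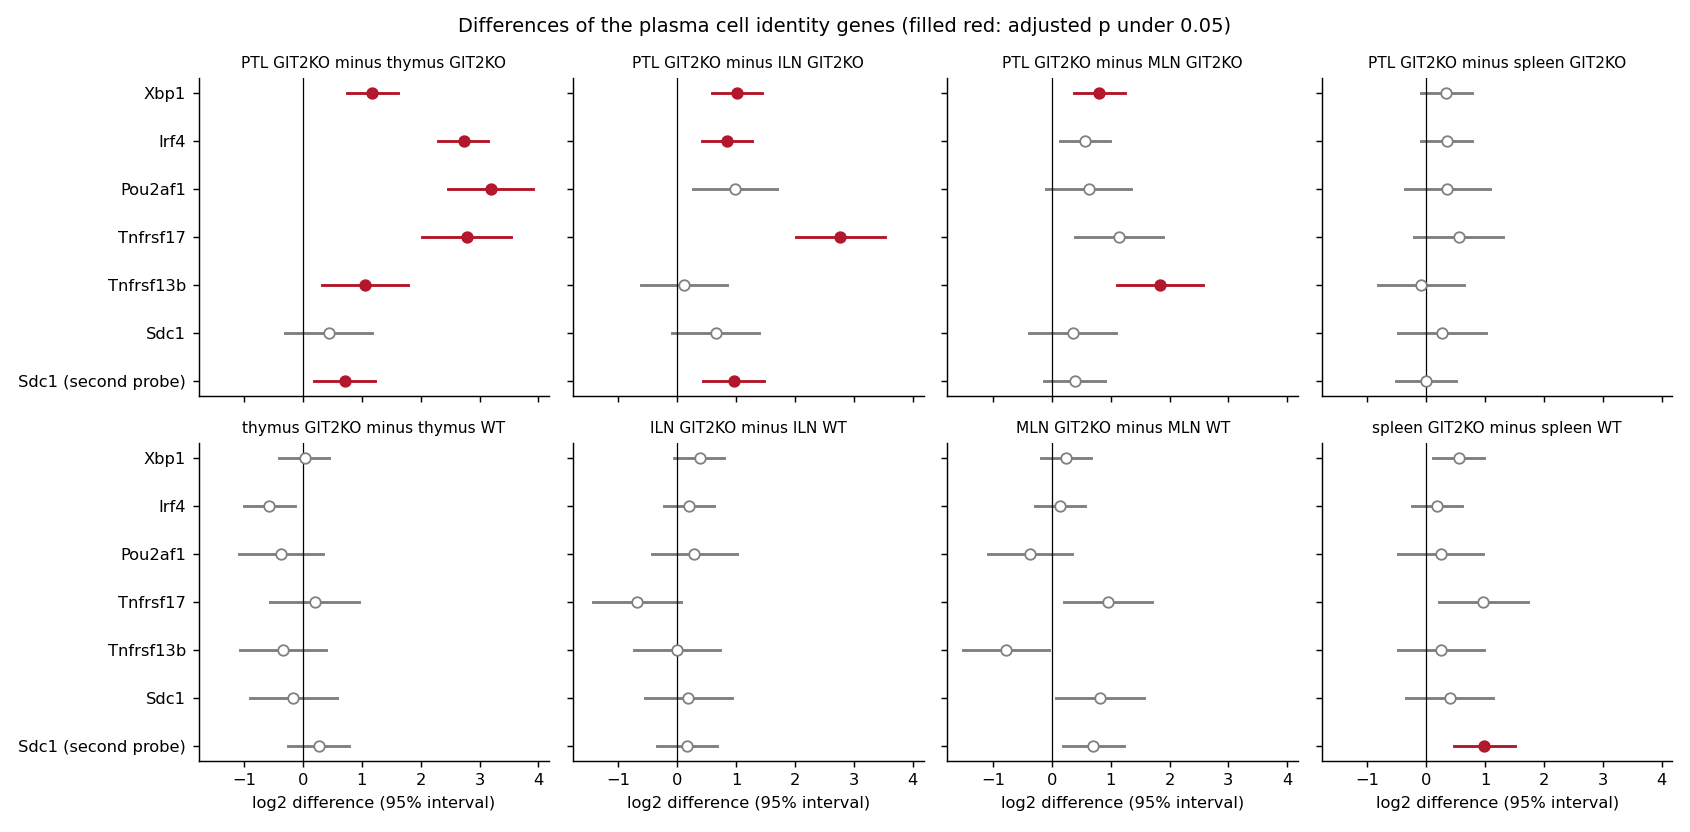
Log2 differences (horizontal axis) of each member probe with 95% intervals, for PTL minus each GIT2KO tissue in the upper panels and for GIT2KO minus WT in each tissue in the lower panels, with filled red points at an adjusted p under 0.05. Red points number 6, 4, 2 and 0 against thymus, ILN, MLN and spleen in the upper panels, and 1, the second Sdc1 probe in spleen, in all lower panels.

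The wider plasma cell and secretory genes were read from lists written from general knowledge, but with earlier results of these data known. Of 33 Xbp1 target and ER secretion genes tested, 25 were higher in PTL than in GIT2KO thymus (median difference 1.05), 13 than in ILN (0.52), 5 than in MLN (0.28) and 3 than in spleen (0.43), and none was lower in the 4 comparisons. Over all probes the medians of these comparisons were −0.02, −0.01, −0.01 and 0.04, and 19.3%, 2.4%, 3.09% and 9.2% of all probes passed as higher. The 3 ER genes against spleen were thus near the share of all probes. Against ILN the leading genes were Derl3, a factor of ER-associated degradation (2.37), Fkbp11, a prolyl isomerase of secretory cells (2.31), and Creld2, an ER stress protein (1.95). Against spleen Fkbp11 (1.27), the ER co-chaperone Dnajc3 (1.21) and the vesicle coat gene Sec24d (0.68) passed.

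Of 15 other plasma cell genes, which share 5 genes with the ER list, 11 were higher and 3 lower in PTL than in GIT2KO thymus. Against ILN 6 were higher, against MLN 5 and against spleen 2, and none was lower. Of all probes 21.5%, 1.93%, 2.49% and 9.89% passed as lower against thymus, ILN, MLN and spleen, beside the shares passing as higher given above. The 3 lower against thymus and the 2 higher against spleen were near these shares. Mzb1, the chaperone of antibody assembly, differed by 2.97 against thymus, 1.54 against ILN and 1.05 against MLN. Txndc5, a disulfide isomerase, differed by 1.54 against ILN and 1.46 against MLN, while Glcci1 differed by −3.54 against thymus. Fkbp11 differed by 3.17 against thymus and 1.6 against MLN.

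B cell genes did not follow this order across tissues. Of 13 B cell markers 13 were higher in PTL than in thymus, but 0 passed against ILN (median −0.26) and 0 against MLN (median 0.18), and against spleen 1 was lower. Among 10 genes that Prdm1 represses in B cells, 7 were higher and 1 lower against thymus, 0 passed against either lymph node group, and 1 was higher against spleen. The Prdm1-repressed list shares 3 genes, Cd22, Cd79a and Fcer2a, with the B cell markers. Of 10 genes for BAFF, its receptor and the signalling adaptors (APRIL was not analysed here), 8 were higher and 1 lower against thymus, with examples in the BAFF receptor Tnfrsf13c (3.70) and BAFF itself, Tnfsf13b (3.32). Against ILN 0 of these 10 were higher and 3 lower, against MLN 1 was higher and 1 lower, and against spleen 2 were higher. Of all probes 19.3%, 2.4%, 3.09% and 9.2% passed as higher against thymus, ILN, MLN and spleen. The shares passing as lower were 21.5%, 1.93%, 2.49% and 9.89%. The 1 B cell marker lower and the 1 Prdm1-repressed gene higher against spleen were near these shares. Of 10 thymocyte markers 9 were lower in PTL than in thymus, with a median of −2.81.

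**Figure D3:**
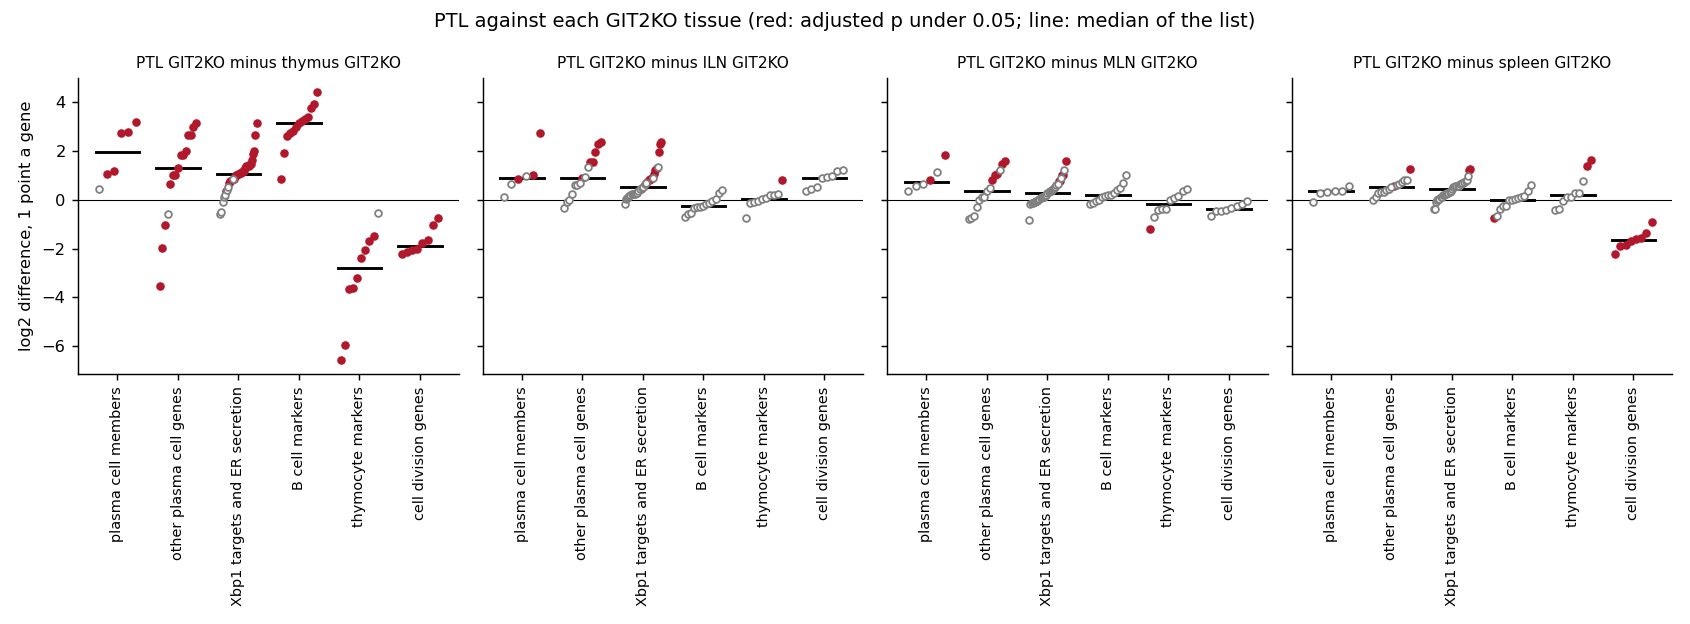
Log2 differences (vertical axis) of single genes in 6 lists between PTL and each of the 4 other GIT2KO tissues, with a line at the list's median. The medians of the Xbp1 target and ER list are 1.05, 0.52, 0.28 and 0.43 against thymus, ILN, MLN and spleen, whereas those of the B cell markers are 3.14, −0.26, 0.18 and −0.01.

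The GIT2KO and WT forms of 4 tissues were compared next. In spleen all 7 member probes were higher in GIT2KO, with a median difference of 0.4 against 0 for all probes, and 1 of 7 passed where 25.2% of all probes did. That was the second Sdc1 probe at 5.11, 6.24 and 6.55 in GIT2KO spleen, against 4.85, 5.24 and 4.86 in WT spleen. The lowest GIT2KO sample was within the WT range, and it and WT replicates 1 and 3 were not detected, so that the size of the difference is not a measured one. The fitted difference of 0.98 (SE 0.25, adjusted p = 0.00607) was lost without GIT2KO spleen replicate 3 (0.69, adjusted p = 0.055) and in a fit of the 2 groups alone. The first Sdc1 probe did not pass in limma (0.40, adjusted p = 0.445), and its samples overlapped between the genotypes.

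Xbp1 and Tnfrsf17 came close to the threshold in spleen. Xbp1 was 12.92, 12.90 and 13.01 in GIT2KO spleen, against 12.48, 12.52 and 12.18 in WT spleen, a difference of 0.55 (SE 0.21, adjusted p = 0.0544). Tnfrsf17 was 7.80, 8.23 and 8.25 in GIT2KO spleen, against 7.57, 6.97 and 6.86 in WT spleen, a difference of 0.96 (SE 0.36, adjusted p = 0.0554). By p-value these probes ranked only 3893 and 3910 among the 15053 tested, of which 25.2% passed. Xbp1 passed on leaving out PTL replicate 1 or 3, GIT2KO ILN replicate 2 or 3 or GIT2KO MLN replicate 3 (adjusted p = 0.0197–0.0496), which enter only the spread. Tnfrsf17 passed without PTL replicate 1 or 3, GIT2KO ILN replicate 2 or 3, GIT2KO MLN replicate 1 or WT spleen replicate 1 (adjusted p = 0.0172–0.0496). Irf4, Pou2af1 and Tnfrsf13b overlapped between the genotypes, with differences of 0.19, 0.25 and 0.25. Cell division genes averaged 9.81–10.48 in GIT2KO spleen and 8.46–9.60 in WT spleen, with 6 of 8 higher. Activated and regulatory T cell markers averaged 6.76–6.98 in GIT2KO and 7.45–7.75 in WT spleen (5 of 11 lower), thymocyte markers 6.59–6.69 in GIT2KO and 7.01–7.16 in WT spleen (4 of 10 lower), and adipocyte markers 6.16–7.43 in GIT2KO and 5.63–5.82 in WT spleen (0 of 11 passing). The part of these lists in the members' values was not tested. Of the 33 ER genes 6 were higher and 4 lower in GIT2KO spleen, and of the 15 other plasma cell genes 2 were higher and 3 lower, where 12.9% of all probes were higher and 12.2% lower, so both counts were close to the share over all probes. Calr, a calcium-binding chaperone, differed by 2.38 and the ER chaperone Hyou1 by 1.45. Of the other plasma cell genes, Edem1 differed by 1.41, Il6ra by 0.94, Cd28 by −1.07 and Sec11c by −0.8.

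In MLN 0 of 7 members passed in limma, where 2.2% of all probes did, and 4 had an unadjusted p under 0.05. Tnfrsf17 was 6.92, 7.78 and 7.83 in GIT2KO MLN, against 6.82, 6.29 and 6.56 in WT MLN (difference 0.95, SE 0.36, adjusted p = 0.225). Tnfrsf13b ran the other way, at 6.22, 6.21 and 6.50 in GIT2KO MLN, against 7.69, 6.86 and 6.69 in WT MLN (difference −0.77, SE 0.35, adjusted p = 0.344). The differences of these 2 receptors for the same ligands had opposite signs, but neither passed. The nearest samples of the 2 genotypes lay close, at 6.92 against 6.82 for Tnfrsf17 and 6.50 against 6.69 for Tnfrsf13b. Both Sdc1 probes were detected in 2 of 3 GIT2KO and 0 of 3 WT samples. With the WT values set to the detection limit of each array, they were 1.12-fold and 1.11-fold higher in GIT2KO. GIT2KO replicate 1 was detected by neither probe and entered as measured (4.83 and 5.25), so these folds are not lower bounds. Neither difference passed (adjusted p = 0.308 and 0.178), though the second passed at 0.0436 without GIT2KO spleen replicate 1. Without WT MLN replicate 3, which carried the pancreas markers, the differences were 0.96 for Tnfrsf17 (adjusted p = 0.301) and −0.97 for Tnfrsf13b (adjusted p = 0.26).

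In ILN 0 of 7 passed and 0 had an unadjusted p under 0.05, where 2.55% of all probes passed. Tnfrsf17 was 5.37, 5.26 and 7.03 in GIT2KO ILN, against 6.45, 6.58 and 6.67 in WT ILN, and the GIT2KO samples lay on both sides of the WT samples (difference −0.68, SE 0.36, adjusted p = 0.452). The third GIT2KO sample decided the value, since without it the difference was −1.25 (adjusted p = 0.0478). The same sample was the highest of the 3 for Xbp1 (12.79), for the ER list (9.42, against 9.0 and 8.96) and for the other plasma cell genes (8.48, against 7.87 and 7.77), while its B cell marker mean was 10.87, against 10.81 and 10.77. Its adipocyte marker mean was 6.57, against 8.11 and 7.91, and the part of this was not tested.

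In thymus 0 of 7 passed, where 17.4% of all probes did, and 1 had an unadjusted p under 0.05. Irf4 was 7.5, 7.08 and 7.69 in GIT2KO thymus, against 8.08, 7.49 and 8.41 in WT thymus, and the ranges overlapped (difference −0.57, SE 0.21, adjusted p = 0.0583). Adipocyte markers averaged 8.74–10.5 in GIT2KO and 5.46–7.98 in WT thymus, with 9 of 11 higher, and activated and regulatory T cell markers 6.53–7.05 in GIT2KO and 7.17–7.64 in WT thymus, with 4 of 11 lower. Of the 13 B cell markers 1 was lower. Of all probes 8.96% were higher and 8.41% lower in GIT2KO thymus. The part of these lists in the Irf4 value was not tested. It passed without WT thymus replicate 2 (−0.82, adjusted p = 0.0135) and without GIT2KO thymus replicate 3 (−0.70, adjusted p = 0.041), and, at the same difference, without PTL replicate 1 or 3 or WT MLN replicate 2 (adjusted p = 0.0424, 0.0448 and 0.0473). Xbp1 was level, at 12.00, 12.13 and 12.18 in GIT2KO thymus, against 12.11, 12.06 and 12.07 in WT thymus (difference 0.03, 95% interval −0.40 to 0.45).

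Hyou1 was higher in GIT2KO in each of the 4 tissues, by 0.79 in thymus, 1.29 in ILN, 1.71 in MLN and 1.45 in spleen. Of the 33 ER genes tested, Hyou1 included, 3 were higher and 3 lower in GIT2KO thymus, 2 higher and 0 lower in ILN, and 1 higher and 0 lower in MLN. Over all probes 8.96%, 0.844% and 0.777% were higher in these tissues and 8.41%, 1.71% and 1.42% lower. Whether the GIT2KO difference of a member depended on the tissue was tested by an F test in limma, which 8.23% of all probes and 0 of the 7 member probes passed, with 2 at an unadjusted p under 0.05. Tnfrsf17 came nearest (F = 4.56, unadjusted p = 0.0115, adjusted p = 0.086), and passed without GIT2KO ILN replicate 3 (adjusted p = 0.00754). The second Sdc1 probe passed without GIT2KO spleen replicate 1 (adjusted p = 0.0264) and Irf4 without WT thymus replicate 2 (adjusted p = 0.045).

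The tissues themselves were set against each other within each genotype. In GIT2KO mice Tnfrsf17 averaged 8.65 in PTL, 8.10 in spleen, 7.51 in MLN, 5.89 in ILN and 5.87 in thymus, and of these steps between neighbours only that from MLN to ILN passed (1.62, adjusted p = 0.00832). This step was lost without ILN replicate 1 or 2 (adjusted p = 0.0678 and 0.0736) or MLN replicate 2 or 3 (0.0534 and 0.0559). Xbp1 followed the same order at 13.29, 12.94, 12.48, 12.27 and 12.11, in which no step between neighbours passed. For Irf4 and Pou2af1 the single step that passed was that from ILN to thymus, at 1.88 (adjusted p = 6.49e-08) and 2.21. Tnfrsf13b was highest in spleen, followed by PTL, ILN, thymus and MLN, with the step from ILN to thymus passing (0.94, adjusted p = 0.0343). It was lost without ILN replicate 1 or 2 (adjusted p = 0.126 and 0.0535) or thymus replicate 1 or 2 (0.0677 and 0.157).

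Of the 7 member probes in GIT2KO tissues, 3 were higher in spleen than in ILN (23.7% of all probes passed), 1 than in MLN (24.5%) and 6 than in thymus (42.9%). In MLN minus ILN 1 was higher and 1, Tnfrsf13b, lower (−1.72), where 1.94% of all probes passed as higher and 3.09% as lower. The comparison of MLN with thymus had 3 higher (41.4%) and that of ILN with thymus 3 higher (44.4%). In spleen minus ILN the calls were Tnfrsf17 (2.21, adjusted p = 6.13e-05), Xbp1 (0.67, adjusted p = 0.0191) and the second Sdc1 probe (0.96, adjusted p = 0.00581). Xbp1 was lost without ILN replicate 1 or 2 (adjusted p = 0.0816 and 0.136) or spleen replicate 3 (0.0565), and Sdc1 without spleen replicate 3 (0.0591). The second Sdc1 probe was detected in 2 of 3 spleen, 1 of 3 ILN and 1 of 3 thymus samples of GIT2KO mice, so its differences are not measured sizes. In spleen minus thymus the second Sdc1 probe (0.72, adjusted p = 0.0232) was lost without spleen replicate 2 or 3 or thymus replicate 2 or 3 (0.109, 0.196, 0.0518 and 0.0669), and Tnfrsf13b (1.14, adjusted p = 0.0109) without thymus replicate 2 (0.0678). The first Sdc1 probe passed in neither comparison in limma, at 0.38 for spleen minus ILN (adjusted p = 0.511) and 0.17 for spleen minus thymus (adjusted p = 0.751). Tnfrsf13b was the call in spleen minus MLN (1.93, adjusted p = 0.000228).

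The 6 comparisons among spleen, MLN, ILN and thymus gave 18 calls in GIT2KO and 8 in WT mice, and the difference between these counts was not tested. In WT spleen minus ILN 0 of 7 passed in limma (2 at an unadjusted p under 0.05, 25.5% of all probes passing), in spleen minus MLN 0 (1 unadjusted, 26.6%) and in MLN minus ILN 0 (2 unadjusted, 7.18%). Against WT thymus 3 were higher in spleen (44.8%), 2 higher and 1 lower in MLN (42.2%) and 2 higher in ILN (40.5%). Irf4 (1.62, 1.45 and 1.11) and Pou2af1 (2.20, 2.56 and 1.55) passed in spleen, MLN and ILN, and Tnfrsf17 in spleen (1.47, adjusted p = 0.00196). The lower probe was the first Sdc1 probe, detected in 0 of 3 WT MLN and 3 of 3 WT thymus samples and therefore at least 1.18-fold lower in MLN (adjusted p = 0.0452), a call that 11 of the 27 omissions of a single sample ended. The second Sdc1 probe was detected in 0 of 3 samples of both groups and did not pass in limma (−0.11, adjusted p = 0.76). Without WT MLN replicate 3 Pou2af1 passed in MLN minus ILN (1.28, adjusted p = 0.0281), and without WT spleen replicate 3, whose Tnfrsf13b signal was 6.94 against 8.73 and 8.28 in the other WT spleens, Tnfrsf13b passed in spleen minus MLN (1.43, adjusted p = 0.00388) and spleen minus thymus (1.09, adjusted p = 0.0095). With the animal as a block 13 calls were made in WT tissues, which added Xbp1 in spleen minus ILN (0.50, adjusted p = 0.0124), Tnfrsf13b in spleen minus MLN (0.91, adjusted p = 0.0156) and MLN minus ILN (−0.96, adjusted p = 0.0277), and Tnfrsf17 in MLN and ILN minus thymus (0.89 and 0.90, adjusted p = 0.0222 and 0.0218). In GIT2KO tissues the block added Xbp1 in spleen minus MLN (0.47, adjusted p = 0.0178) and MLN minus thymus (0.37, adjusted p = 0.0407), and Tnfrsf13b in MLN minus thymus (−0.78, adjusted p = 0.0235).

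Across the 27 samples the members fell into different company. Correlations are given as descriptions over samples that share 7 animals and 9 groups. The genes most like Xbp1 over all tested probes were Derl3 (r = 0.925), Fkbp11 (r = 0.911) and Creld2 (r = 0.903), and those most like Tnfrsf17 were Prdx4, an ER peroxiredoxin (r = 0.914), Bhlha15 (Mist1), a transcription factor of secretory cells (r = 0.906), and Ssr4, a subunit of the translocon-associated complex (r = 0.9). Irf4 and Pou2af1 were most like each other (r = 0.963). Next to Irf4 stood Plcg2, the phospholipase of B cell receptor signalling (r = 0.943), and next to Pou2af1 the B cell linker Blnk (r = 0.953). Tnfrsf13b was most like Itgb1 (r = 0.823), Kitl (r = 0.814) and Nln (r = 0.805). The second Sdc1 probe was most like Fkbp2, an ER prolyl isomerase (r = 0.857), while the first, at r = 0.677 with H13, had no close partner.

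The mean of the ER list correlated with Xbp1 at 0.89 and with Tnfrsf17 at 0.86 over 27 samples. After removal of each group's mean, so that only variation between samples of 1 group remained, the values were 0.81 and 0.65. It also correlated with Irf4 at 0.8 and 0.65 within groups and with Pou2af1 at 0.78 and 0.64, so that within groups Tnfrsf17, Irf4 and Pou2af1 were alike in this. The mean of the B cell markers correlated with Xbp1 at 0.34 and, within groups, at −0.13, and with Tnfrsf17 at 0.53 and 0.07. It correlated with Pou2af1 at 0.91 and 0.73 and with Irf4 at 0.92 and 0.61. Within groups, Irf4 and Pou2af1 also correlated with activated and regulatory T cell markers (0.78 and 0.67), adipocyte markers (−0.73 and −0.69) and the other plasma cell genes (0.67 and 0.69). The receptors Tnfrsf17 and Tnfrsf13b correlated at 0.27 and 0.36. The highest Pou2af1 signal of all, 12.81 in WT MLN replicate 2, fell in the sample with the highest mean of germinal centre genes (8.96).

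**Figure D4:**
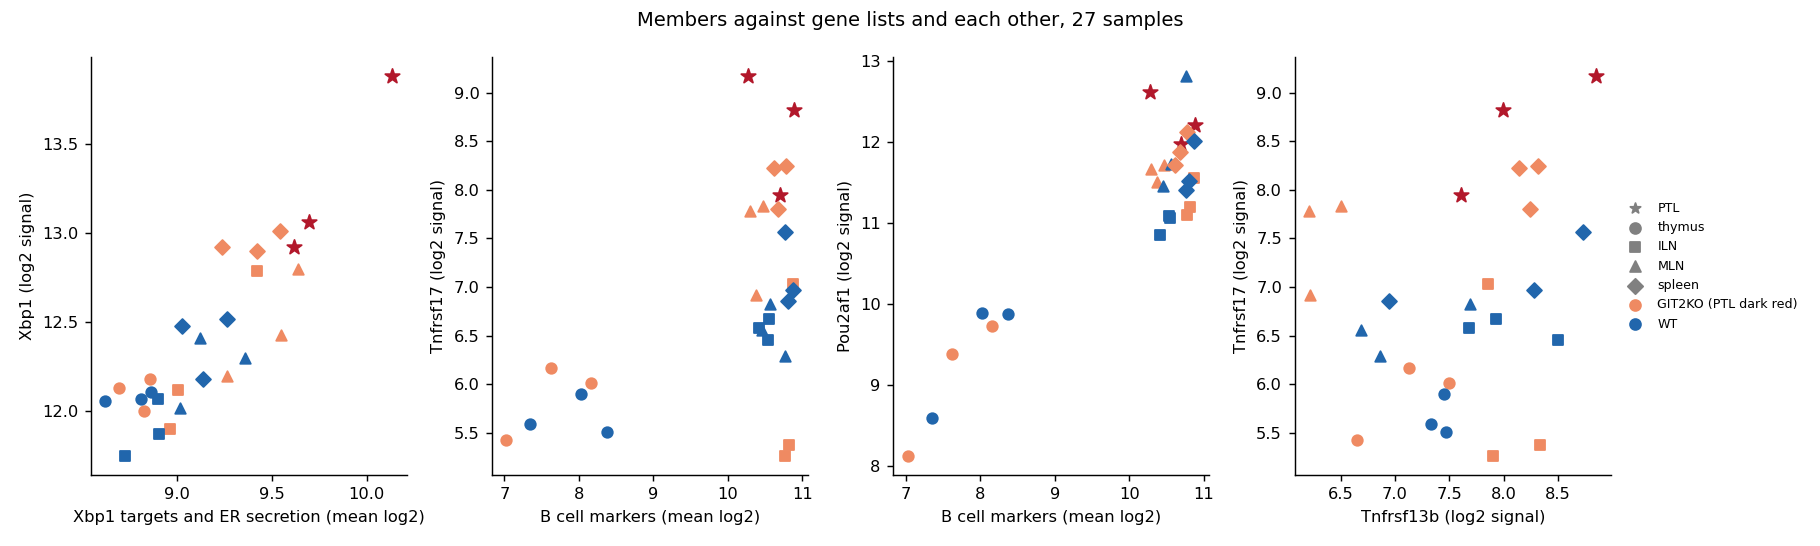
Each point is 1 of 27 samples, with log2 signals or mean log2 signals of a list on both axes. The panels plot Xbp1 against the Xbp1 target and ER list (r = 0.89), Tnfrsf17 against the B cell markers (r = 0.53), Pou2af1 against the B cell markers (r = 0.91) and Tnfrsf17 against Tnfrsf13b (r = 0.27).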

How the data were processed

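RNA of 27 samples was measured on 31 bead arrays, 4 samples having a repeat array. The authors took signals from GenomeStudio 2011.1, and the deposited intensity values are non-normalized. A detection p-value was deposited for each probe and array. The deposited score values, which are log10 signals z-transformed per array by the authors (recomputed within 5e-10), were used as an alternative. From the intensities, log2 signals were made with neqc of limma 3.58.1 (R 4.3.3), which corrects background from the detection p-values and quantile-normalizes (offset 16). Repeat arrays were averaged. Tested probes were those detected, at a threshold of 0.05, in 3 or more of the samples.

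One limma model with a mean trend held the 9 groups, and 20 comparisons and an F test were drawn from it, with Benjamini-Hochberg adjustment over 15053 probes at 0.05. Members and gene lists were chosen with earlier results of these data known, and the lists received no test. A list is described by its tested genes, each by the probe with the highest mean signal. Named genes are the members, the leading passing genes of each list and the 3 genes most correlated with each member. Symbols came from the array's annotation (23978 probes with a symbol, 1719 with none). All 7 members were matched to RefSeq promoters, and 16 of the 18 genes most like them. The method was tested on simulated data.

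Tissues of 1 genotype share animals, apart from PTL replicate 3. After removal of group means, samples of 1 animal correlated at −0.13 to 0.41 in GIT2KO (26 pairs, median 0.2) and at −0.23 to 0.3 in WT (18 pairs, median 0.05). Since not every pair was positive in the data but the animals are shared, the animal was run as a block and is given where it changed a call. PTL replicate 3 is the only sample of its animal, so it adds nothing to a PTL comparison with the animal as a fixed block. Those comparisons rest on the other lobes. The number of arrays limits the precision. Immunoglobulin genes were not analysed here.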

Additional observations from a re-analysis of the deposited data

How the results depend on the processing

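Of the alternative counts of members that passed, 121 stayed within 1.5 times the count reported, 14 were higher and 6 lower. The spleen GIT2KO minus WT count of 1 was 2 without background correction, with z-transformed log10 values and with the deposited scores, 0 in a fit of only the groups compared, and 3 with the repeat array only, with the replicate number as a block and with a random block for the animal. The replicate number is only shared between genotypes, and this block added Xbp1 (0.55, adjusted p = 0.032) and Tnfrsf17 (0.96, adjusted p = 0.0486) and changed no other call. The Sdc1 call of PTL against ILN was also lost with the repeat array only (0.91, adjusted p = 0.0531). A fit of only the groups compared gave 0 in place of 4 against ILN, 1 in place of 2 against MLN, and 15 in place of 8 over the WT tissue pairs, where the animal as a fixed block gave 13.

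Leaving out 1 sample at a time gave 0–1 in thymus, ILN and MLN, 0–3 in spleen, 4–6 for PTL against thymus, 2–4 against ILN, 1–4 against MLN, 7–12 for WT tissue pairs, 15–19 for GIT2KO tissue pairs and 0–1 for the F test. Signs turned for 15 values that had not passed. For GIT2KO minus WT, Xbp1 in thymus was −0.06 with z-transformed values and deposited scores and −0.01 to 0.08 on leaving out a sample. Such omissions gave −0.80 to 0.10 for Pou2af1 in thymus, −0.64 to 0.03 for Pou2af1 in MLN, −0.24 to 0.42 and −0.04 to 0.28 for the 2 Sdc1 probes in ILN, −0.19 to 0.22 for Tnfrsf13b in ILN (0.03 with the first array only) and −0.27 to 0.62 for Tnfrsf13b in spleen. For PTL they gave −0.23 to 0.39 for Tnfrsf13b against ILN (−0.16 with the animal as a block), −0.43 to 0.19 for it against spleen, and −0.02 to 0.72 and −0.03 to 0.48 for Sdc1 against MLN and spleen. The cause was not tested. Signal over background limits Sdc1, and Prdm1 was not measured above it.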
